A study of Mus musculus with 18 samples.

Results

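A set of 10 genes of histone H3 lysine 9 (H3K9) methylation was followed by RNA-Seq across 6 conditions of LPS tolerance and carboplatin in bone marrow-derived macrophages (BMDMs). They were taken by symbol from all 18 count files and comprise the HP1 readers Cbx5, Cbx1 and Cbx3, the writers Suv39h1, Suv39h2, Ehmt1, Ehmt2 and Setdb1, and the erasers Kdm4a and Kdm4c. These 10 genes stand among 22852 gene symbols in the files, of which 15486 had a read in at least 1 sample and 11305 passed the filter on low counts; all 10 passed it. The libraries came from 18 samples of BMDMs of female C57BL/6 mice with no engineered allele named, with 3 biological replicates in each of 6 groups. All cells were differentiated for 7 days in medium that held L929-conditioned medium. Unstimulated BMDMs received no LPS and no carboplatin. LPS-stimulated BMDMs, shown as LPS10 in the plots, received a single dose of 10 ng/ml LPS for 3 h, a time read from the treatment scheme. LPS-primed BMDMs (LPS100) received 100 ng/ml LPS for 24 h. LPS-tolerant BMDMs (Tol) received 100 ng/ml for 24 h and then 10 ng/ml for 3 h in fresh medium. In the remaining groups (LPS100_Carbo and Tol_Carbo), LPS-primed and LPS-tolerant BMDMs had received 25 µM carboplatin, a platinum drug that crosslinks DNA, from 1 h before priming. The study describes the drug as present during the 24 h of priming, and the medium was replaced before the second dose. LPS is the bacterial lipopolysaccharide that activates macrophages through TLR4, and tolerance is the reduced cytokine response of macrophages that meet it again.

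Methylation of H3K9 marks silent chromatin. SUV39H1 and SUV39H2 place trimethylation mainly in constitutive heterochromatin, EHMT2 (G9a) and EHMT1 (GLP) act as a complex that places mono- and dimethylation in euchromatin, and SETDB1 trimethylates H3K9 at retroelements and at genes to which KRAB zinc finger proteins recruit it. HP1α (Cbx5), HP1β (Cbx1) and HP1γ (Cbx3) bind the methylated residue through their chromodomains, and KDM4A and KDM4C remove the tri- and dimethyl marks.

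Between 6869667 and 14708099 reads per sample fell on genes, with a median of 8986463. The macrophage label held: the 8 macrophage markers summed to between 12965 and 30956 CPM (reads scaled to a common library total) in every sample, while the 4 T cell markers and the 3 mast cell and basophil markers had no read. Neutrophil, dendritic, stromal and erythroid markers summed to at most 8.07 CPM. The 5 B cell markers summed to between 28.7 and 168 CPM in unstimulated, between 7.69 and 29.1 CPM in LPS-stimulated and at most 1.36 CPM in all other BMDMs. Nearly all of it was Ighm, with up to 1697 reads, since Cd79a and Ms4a1 had at most 2 reads in any sample and Cd79b at most 17. The part of these transcripts in the results was not tested. As these are bulk samples, fewer cells with a transcript and less of it per cell cannot be told apart.

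The start sites of the 6 genes that were called in a comparison of LPS are shown first, with every RefSeq window of each. The windows are those of RefSeq on GRCm38.p6, from 250 bases before to 50 after a start site, 5′ to 3′ on the strand of the gene. Capitals mark letters searched on both strands: the E2F letters TTTCCCGC, TTTCGCGC, TTTGCCGC or TTTGGCGC, the NF-κB letters GGG, any 3 bases and TTCC, and the NRF1 letters GCGCA, any base and GCGC. The windows are Suv39h1 at chrX:8074711-8075010 and, for a second start site, at chrX:8074312-8074611 (both minus strand), Suv39h2 at chr2:3474937-3475236 (minus), Cbx3 at chr6:51470366-51470665 and chr6:51471002-51471301 (plus), Ehmt2 at chr17:34898224-34898523 and chr17:34898720-34899019 (plus), Setdb1 at chr3:95357153-95357452 (minus) and Kdm4a at chr4:118179994-118180293 (minus).
Suv39h1, first window: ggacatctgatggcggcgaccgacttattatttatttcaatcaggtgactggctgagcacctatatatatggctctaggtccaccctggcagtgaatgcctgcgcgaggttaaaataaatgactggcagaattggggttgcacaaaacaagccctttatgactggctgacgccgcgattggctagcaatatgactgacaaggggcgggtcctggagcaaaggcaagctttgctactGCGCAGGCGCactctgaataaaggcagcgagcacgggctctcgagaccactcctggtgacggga
Suv39h1, second window: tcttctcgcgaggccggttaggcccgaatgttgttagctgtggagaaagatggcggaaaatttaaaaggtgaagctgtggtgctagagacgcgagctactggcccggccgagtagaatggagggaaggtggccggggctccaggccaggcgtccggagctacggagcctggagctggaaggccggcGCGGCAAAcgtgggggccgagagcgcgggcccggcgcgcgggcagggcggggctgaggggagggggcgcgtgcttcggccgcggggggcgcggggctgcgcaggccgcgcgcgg
Suv39h2: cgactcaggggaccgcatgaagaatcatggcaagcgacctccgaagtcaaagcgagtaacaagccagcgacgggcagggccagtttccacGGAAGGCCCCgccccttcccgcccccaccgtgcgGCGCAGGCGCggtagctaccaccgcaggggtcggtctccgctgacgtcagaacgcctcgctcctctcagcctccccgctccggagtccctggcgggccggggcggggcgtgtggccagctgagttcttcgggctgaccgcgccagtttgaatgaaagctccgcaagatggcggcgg
Cbx3, first window: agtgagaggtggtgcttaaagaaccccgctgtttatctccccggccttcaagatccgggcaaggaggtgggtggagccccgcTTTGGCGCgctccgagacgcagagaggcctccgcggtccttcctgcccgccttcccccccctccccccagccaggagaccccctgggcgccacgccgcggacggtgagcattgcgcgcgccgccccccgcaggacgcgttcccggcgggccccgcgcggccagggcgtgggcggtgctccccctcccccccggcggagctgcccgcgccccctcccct
Cbx3, second window: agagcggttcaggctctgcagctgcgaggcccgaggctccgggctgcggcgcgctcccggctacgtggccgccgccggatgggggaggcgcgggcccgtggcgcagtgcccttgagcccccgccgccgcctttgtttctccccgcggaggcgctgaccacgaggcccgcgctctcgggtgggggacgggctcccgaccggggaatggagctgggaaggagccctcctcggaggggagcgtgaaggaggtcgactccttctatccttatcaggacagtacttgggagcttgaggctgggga
Ehmt2, first window: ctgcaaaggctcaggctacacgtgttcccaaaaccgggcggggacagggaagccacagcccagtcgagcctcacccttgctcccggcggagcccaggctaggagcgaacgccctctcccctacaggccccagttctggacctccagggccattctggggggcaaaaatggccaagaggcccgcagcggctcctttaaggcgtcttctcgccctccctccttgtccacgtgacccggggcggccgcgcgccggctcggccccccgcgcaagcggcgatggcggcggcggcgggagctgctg
Ehmt2, second window: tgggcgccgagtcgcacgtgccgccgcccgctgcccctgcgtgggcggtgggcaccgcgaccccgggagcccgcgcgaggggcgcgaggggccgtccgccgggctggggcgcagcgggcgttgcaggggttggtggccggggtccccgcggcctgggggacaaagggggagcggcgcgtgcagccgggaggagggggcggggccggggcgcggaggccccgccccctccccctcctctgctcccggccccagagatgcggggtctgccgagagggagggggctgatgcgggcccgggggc
Setdb1: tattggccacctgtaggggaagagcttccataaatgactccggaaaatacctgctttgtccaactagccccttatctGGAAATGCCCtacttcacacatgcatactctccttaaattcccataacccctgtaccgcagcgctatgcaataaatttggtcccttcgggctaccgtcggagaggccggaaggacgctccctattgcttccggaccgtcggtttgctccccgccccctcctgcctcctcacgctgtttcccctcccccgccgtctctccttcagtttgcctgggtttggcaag
Kdm4a: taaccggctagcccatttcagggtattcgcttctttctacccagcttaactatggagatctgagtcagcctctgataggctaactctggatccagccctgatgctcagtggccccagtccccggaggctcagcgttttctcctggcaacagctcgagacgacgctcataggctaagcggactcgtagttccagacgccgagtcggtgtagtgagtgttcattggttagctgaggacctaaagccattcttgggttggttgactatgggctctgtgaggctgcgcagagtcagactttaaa

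The first Suv39h1 window held the NRF1 letters 14 bases before the start site, and the second held the reverse complement of TTTGCCGC 64 bases before it. In Suv39h2 the NRF1 letters stood 126 bases and the reverse complement of the NF-κB letters 160 bases before the start site. The first Cbx3 window held TTTGGCGC 168 bases before its start site, and Setdb1 the reverse complement of the NF-κB letters 173 bases before. The second Cbx3 window, both Ehmt2 windows and the Kdm4a window held none of these. Of the 10 genes, which have 15 windows in all, 5 held the NRF1 letters (Suv39h1, Suv39h2, Ehmt1, Cbx5 and Kdm4c), 2 the E2F letters and 2 the NF-κB letters. By window, these letters were found in 5, 2 and 2 of the 15, and in 4.6%, 2.26% and 5.56% of all 32851 RefSeq promoter windows. Of 3 further motifs, CCAAT (37.4% of all windows) was in 4 of the 15 windows and the CHR letters TTTGAA (17.9%) in 1. The E-box CACGTG (7.15%) was in 4 of the 15 windows, which belong to 3 genes. A match describes the letters only.

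On GRCm39, the build of the deposited counts, the genes lie on autosomes and, for Suv39h1, on X. Suv39h1 spans chrX:7927403-7940999, Suv39h2 chr2:3455774-3476146, Setdb1 chr3:95229399-95264541 and Kdm4a chr4:117994154-118037251, all on the minus strand, while Ehmt2 at chr17:35117256-35133048 and Cbx3 at chr6:51447082-51460691 are on the plus strand. Exons of some overlap genes on the opposite strand: 50.3% of the exonic bases of Suv39h2 lie over Dclre1c, 17.0% of Suv39h1 over a lncRNA gene, 15.2% of Cbx3 over Hnrnpa2b1 and 11.9% of Setdb1 over Cers2. The libraries were stranded, but the strand option of the counting is not given in the sources used here. Of all stretches of 100 bases in the transcripts, 9.03% of those of Cbx3 recur in other genes, which include 6 of its pseudogenes, and 10.7% of those of Setdb1 recur in Gm4349, so that reads of these genes may have been split.

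Levels differed widely among the 10 genes. Per kilobase of exon, the mean over the 18 samples was 31.7 CPM per kb for Ehmt2 (range 21.9 to 50.1), 11.8 for Kdm4a, 7.30 for Cbx1, 6.96 for Setdb1, 3.81 for Ehmt1, 3.41 for Cbx3, 2.08 for Kdm4c, 1.74 for Suv39h1, 0.714 for Cbx5 and 0.198 for Suv39h2. Ehmt2 was thus the most abundant writer and Suv39h2 the least, with 4 to 53 reads per sample. Unless a unit is named, further values are normalized counts, which are reads scaled to a common library size, and compare 1 gene between samples only.

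**Figure D1:**
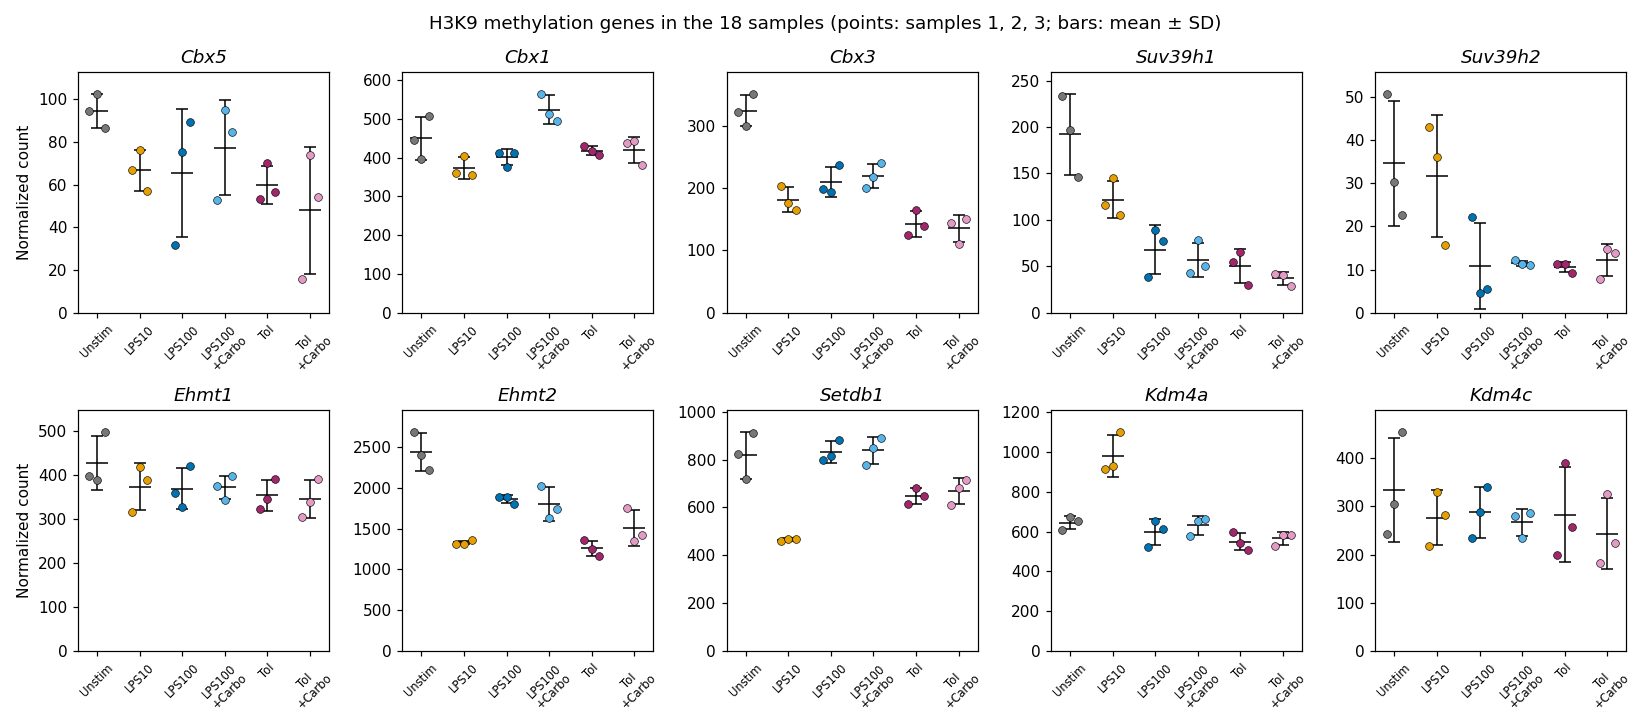
Normalized counts (y axis, from 0) of the 10 genes in the 6 groups (x axis); points are samples 1, 2 and 3 from left to right, and bars give the mean ± SD of n = 3. The means of Suv39h1, Suv39h2, Cbx3, Cbx5, Ehmt1, Ehmt2 and Kdm4c are highest in unstimulated BMDMs. Kdm4a is highest and Setdb1 lowest after the single 10 ng/ml dose. Cbx5, Cbx1, Ehmt1 and Kdm4c overlap between all groups that are neighbours in level.

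The widest range of group means belonged to Suv39h1 (2.29 on the log2 scale), followed by Suv39h2 (1.71), Cbx3 (1.26), Cbx5 (1.19), Ehmt2 (0.95), Setdb1 (0.84), Kdm4a (0.83), Cbx1 (0.48), Kdm4c (0.45) and Ehmt1 (0.31). In the order of levels of Suv39h1, unstimulated BMDMs came first and LPS-stimulated BMDMs second, each without overlap with the next group, and the 4 primed groups overlapped. Suv39h2 had unstimulated and LPS-stimulated BMDMs overlapping at the top and the 4 primed groups overlapping lower down. LPS-primed sample 1, at 22.2 normalized counts, lay above LPS-stimulated sample 3, at 15.8. For Cbx3, unstimulated BMDMs stood above all others, and the LPS-tolerant groups, with and without carboplatin, stood below all others. The lower gap was narrow, with the highest LPS-tolerant sample at 164.1 and the lowest LPS-stimulated sample at 164.6 normalized counts. Setdb1 was lowest in LPS-stimulated BMDMs, intermediate in both LPS-tolerant groups, and highest in the other 3, which overlapped. Kdm4a was highest in LPS-stimulated BMDMs, with the other 5 groups overlapping in sequence. The neighbouring groups overlapped throughout for Cbx5, Cbx1, Ehmt1 and Kdm4c.

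The first comparison asked which of the genes changed with 24 h of priming. In LPS-primed against unstimulated BMDMs, 4 of the 10 had an adjusted p under 0.05 (25.2% of all tested genes), the limit for a call throughout, all of them lower (13.1% of all tested genes were lower). Of these, 3 are writers (Suv39h1, Suv39h2 and Ehmt2) and 1 is a reader (Cbx3). The same 4 were the genes whose groups did not overlap (39.4% of all tested genes). Neither eraser was called. The median log2FC of the 10 genes was -0.30, and that of all tested genes was -0.02.

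Suv39h1 had 233, 197 and 146 normalized counts in the unstimulated samples and 38.1, 88.9 and 76.9 in the LPS-primed samples. Every primed sample lay below every unstimulated one. Group means stood at 192 ± 43.6 and 68.0 ± 26.5 (SD, n = 3). This is a log2FC of -1.50 (SE 0.33, adjusted p = 0.00280). With the samples numbered 1 left out together, it was -1.06 with an adjusted p of 0.0517.

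Suv39h2, the paralog with the same activity, had 50.7, 30.3 and 22.7 normalized counts in unstimulated and 22.2, 4.56 and 5.63 in LPS-primed BMDMs. The groups did not overlap, but the highest primed sample came within 1 normalized count of the lowest unstimulated one. The log2FC was -1.67 (SE 0.53, adjusted p = 0.0276). These values rest on 4 to 21 reads per primed sample, and the call was lost when either unstimulated sample 1 or 2 or primed sample 2 or 3 was left out (adjusted p between 0.0505 and 0.128).

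Cbx3, which encodes HP1γ, had 321, 299.98 and 351 normalized counts in unstimulated and 198, 194 and 237 in LPS-primed BMDMs. All primed samples were lower, with a log2FC of -0.63 (SE 0.17, adjusted p = 0.0101). Ehmt2, which encodes the methyltransferase G9a, had 2684, 2397 and 2224 against 1890.2, 1888 and 1801. It was lower in every primed sample by a smaller margin, with a log2FC of -0.39 (SE 0.13, adjusted p = 0.0326). The Ehmt2 call was lost when unstimulated sample 1 or 2 or any primed sample was left out (adjusted p between 0.0695 and 0.149).

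Its partner Ehmt1 showed a log2FC of -0.21 (95% CI -0.55 to 0.13), and Setdb1 one of 0.03 (-0.23 to 0.28). Kdm4a had -0.12 (-0.38 to 0.15) and Kdm4c -0.21 (-0.80 to 0.37). For Cbx1, which encodes HP1β, the value was -0.17 (-0.44 to 0.11). Cbx5, which encodes HP1α, had 94.6, 102 and 86.3 normalized counts in unstimulated and 31.8, 75.2 and 89.1 in LPS-primed BMDMs. The primed samples spread widely, with sample 1 far below and sample 3 inside the unstimulated range, and the log2FC of -0.53 (-1.39 to 0.33) did not pass the test.

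Of 15 proliferation genes listed beside the H3K9 genes, which include replication factors such as Pcna, cyclins and mitotic kinases, 13 were called lower in the same comparison. Their summed level ranged from 1493 to 2725 CPM in unstimulated, 1034 to 2086 in LPS-stimulated, 404 to 671 in LPS-primed and 440 to 825 CPM in LPS-tolerant BMDMs. LPS-primed and LPS-tolerant BMDMs with carboplatin had 319 to 439 and 409 to 536 CPM. The part of proliferation in the decrease of Suv39h1 and Suv39h2 was not tested.

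**Figure D2:**
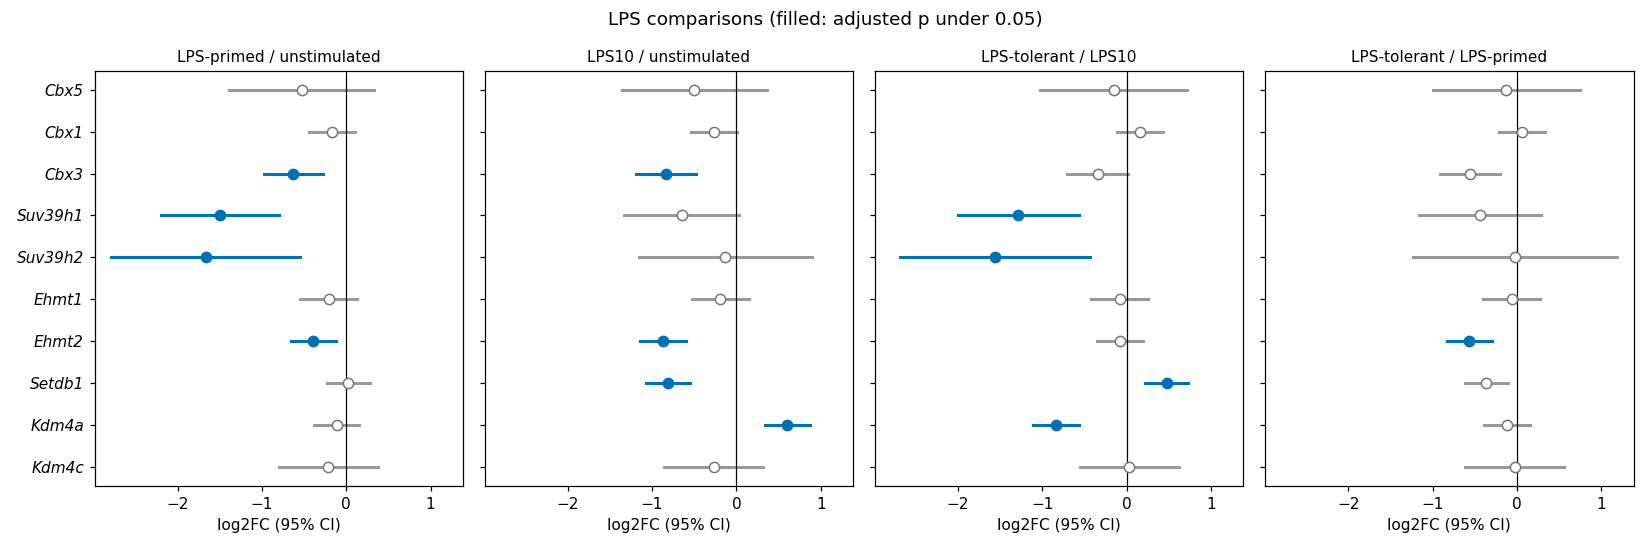
log2FC (x axis) of the 10 genes (y axis) in the 4 LPS comparisons, with 95% confidence intervals as lines and filled points for an adjusted p under 0.05. The filled points of Suv39h1 and Suv39h2 lie between -1.67 and -1.28 for LPS-primed against unstimulated and for LPS-tolerant against LPS10 BMDMs, and Setdb1 and Kdm4a are filled in the 2 comparisons that involve LPS10.

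The next comparison was that of the single dose of 10 ng/ml for 3 h, which differs from priming in dose and time. LPS-stimulated and LPS-primed BMDMs were not tested against each other. Against unstimulated BMDMs, 4 of the 10 genes were called (51.2% of all tested genes), 3 of them lower (26.9%) and 1 higher (24.3%). Cbx3, Ehmt2 and Setdb1 were lower and Kdm4a was higher. The median log2FC was -0.38 for the 10 genes and -0.09 for all tested genes. The groups did not overlap for 6 of the 10 (55.7% of all tested genes), namely the called genes, Suv39h1 and Cbx5. Both this comparison and the one of priming used the same unstimulated samples.

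Setdb1 had 823, 717 and 913 normalized counts in unstimulated BMDMs and 459, 467 and 470.3 in LPS-stimulated BMDMs. The stimulated samples lay close together and far below, with a log2FC of -0.81 (SE 0.12, adjusted p = 3.30e-05). Ehmt2 fell from the values above to 1317, 1316 and 1359, a log2FC of -0.87 (SE 0.13, adjusted p = 2.92e-05). Cbx3 had 203, 176 and 165 normalized counts after the dose, a log2FC of -0.84 (SE 0.17, adjusted p = 0.000533). All stimulated samples of these genes lay below all unstimulated ones.

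Kdm4a, the demethylase, was the only 1 of the 10 genes called higher in any comparison with unstimulated BMDMs. It had 609.9, 674 and 653 normalized counts in unstimulated and 914, 928 and 1100.3 in LPS-stimulated BMDMs, with no overlap. The log2FC was 0.60 (SE 0.13, adjusted p = 0.000818), a 1.52-fold increase. Scaling by library size alone, which shifted the median of all genes in this comparison from -0.09 to -0.43, gave Kdm4a 0.27 with an adjusted p of 0.0906. Kdm4c had -0.27 (95% CI -0.85 to 0.32).

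Suv39h1 had 116, 145 and 105 normalized counts after the single dose, all below the unstimulated samples. Its log2FC of -0.65 (SE 0.32) had an adjusted p of 0.1003, and of 0.0317 when the replicate number entered as a block. Suv39h2 had 43.0, 36.0 and 15.8 and overlapped the unstimulated samples, with a log2FC of -0.13 (95% CI -1.16 to 0.90). Cbx1 (-0.27), Ehmt1 (-0.19) and Cbx5 (-0.50) did not pass the test.

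The comparison that defines tolerance sets LPS-tolerant against LPS-stimulated BMDMs, which had the same last dose and differed in priming. Here 4 of the 10 genes were called (34.5% of all tested genes), 3 lower (18.3%) and 1 higher (16.2%). Suv39h1, Suv39h2 and Kdm4a were lower and Setdb1 was higher in LPS-tolerant BMDMs. There was no overlap between the groups for 6 of the 10 (44.2% of all tested genes), these 4 with Cbx3 and Cbx1. For Cbx3 and Cbx1 the groups were barely apart. Cbx3 had at most 164.1 normalized counts in LPS-tolerant and at least 164.6 in LPS-stimulated BMDMs. Cbx1 had at least 405.6 in LPS-tolerant and at most 405.4 in LPS-stimulated BMDMs. The median log2FC was -0.12 for the 10 genes and 0.00 for all tested genes.

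Suv39h1 had 54.4, 65.6 and 29.9 normalized counts in LPS-tolerant BMDMs, all below the LPS-stimulated samples, and a log2FC of -1.28 (SE 0.34, adjusted p = 0.00689). Suv39h2 had 11.4, 11.2 and 9.27, also below every LPS-stimulated sample, and a log2FC of -1.56 (SE 0.53, adjusted p = 0.0312). Its call was lost when any LPS-tolerant sample or LPS-stimulated sample 1 or 2 was left out (adjusted p between 0.0674 and 0.0967). Of the 15 proliferation genes, 9 were called lower in the same comparison. Their part in these differences was not tested.

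Kdm4a had 596, 543 and 509.6 normalized counts in LPS-tolerant BMDMs, against 914, 928 and 1100.3 after the single dose. There was no overlap, and the log2FC was -0.84 (SE 0.13, adjusted p = 8.12e-05). Setdb1 had 613, 679.6 and 647, all above the LPS-stimulated samples, with a log2FC of 0.47 (SE 0.12, adjusted p = 0.00569). Ehmt2 reached similar levels in both groups: 1356, 1253 and 1170.5 in LPS-tolerant BMDMs, with a log2FC of -0.08 (95% CI -0.35 to 0.19). For Cbx3 the tolerant samples, at 124, 164 and 139, lay below the stimulated ones without overlap, but the log2FC of -0.34 (95% CI -0.70 to 0.02) had an adjusted p of 0.133. Cbx1 was higher in each tolerant sample, at 431, 418 and 406 against 362, 405 and 354, with a log2FC of 0.16 (95% CI -0.11 to 0.43). Cbx5 (-0.15), Ehmt1 (-0.08) and Kdm4c (0.03) overlapped between the groups and did not pass the test.

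Re-exposure was examined by setting LPS-tolerant against LPS-primed BMDMs, which differ by the second dose, the change of medium and the 3 h that followed. Only 1 of the 10 genes was called (6.31% of all tested genes), and it was lower (2.71%): Ehmt2, with a log2FC of -0.56 (SE 0.13, adjusted p = 0.0142). All LPS-tolerant samples lay below the LPS-primed samples, which had 1801 to 1890.2 normalized counts. Without LPS-tolerant sample 3 the adjusted p was 0.0748. Cbx3 (-0.56, SE 0.17) and Setdb1 (-0.36, SE 0.12) also had no overlap between the groups, with adjusted p values of 0.0621 and 0.0840, which makes 3 of 10 without overlap (26.2% of all tested genes). With the replicate block these became 0.0238 and 0.0183, so that 3 of the 10 genes were called, where the block raised the calls among all genes from 713 to 2034. Suv39h1 (-0.44, 95% CI -1.16 to 0.29), Suv39h2 (-0.02, -1.23 to 1.18), Cbx5 (-0.12, SE 0.41) and Kdm4a (-0.12, -0.39 to 0.15) did not pass the test. The median log2FC of the 10 genes was -0.12 and that of all tested genes -0.01.

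Whether priming altered the response to 10 ng/ml was tested as the difference between the second-dose response (LPS-tolerant against LPS-primed) and the first-dose response (LPS-stimulated against unstimulated). These responses share no samples, and 1 of the 10 genes differed (23.8% of all tested genes), with a lower second response (13.3%). Kdm4a rose 1.52-fold with the first dose and had a log2FC of -0.12 with the second, and the difference of the log2FC values was -0.72 (SE 0.18, adjusted p = 0.00743). It had this sign in 3 of 3 same-numbered sets of samples. The lowest correlation between same-numbered samples was 0.06 here, so these sets may not be true pairs. Setdb1, which fell by 0.81 with the first dose and had -0.36 with the second, differed by 0.45 (SE 0.17, adjusted p = 0.0678). The adjusted p of Setdb1 was 0.0362 by DESeq2 and 0.0413 without unstimulated sample 2. Of the other alternatives, library size alone and the replicate block called Setdb1. It was not called with DESeq2 size factors, limma-voom, no filter, only the groups compared, or any other single sample left out. The decrease of Ehmt2 was -0.87 with the first and -0.56 with the second dose, a difference of 0.31 (95% CI -0.07 to 0.69). For Cbx3 the values were -0.84 and -0.56, with a difference of 0.28 (-0.22 to 0.79). These intervals leave room for responses of equal size and for a smaller or a somewhat larger second response.

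**Figure D3:**
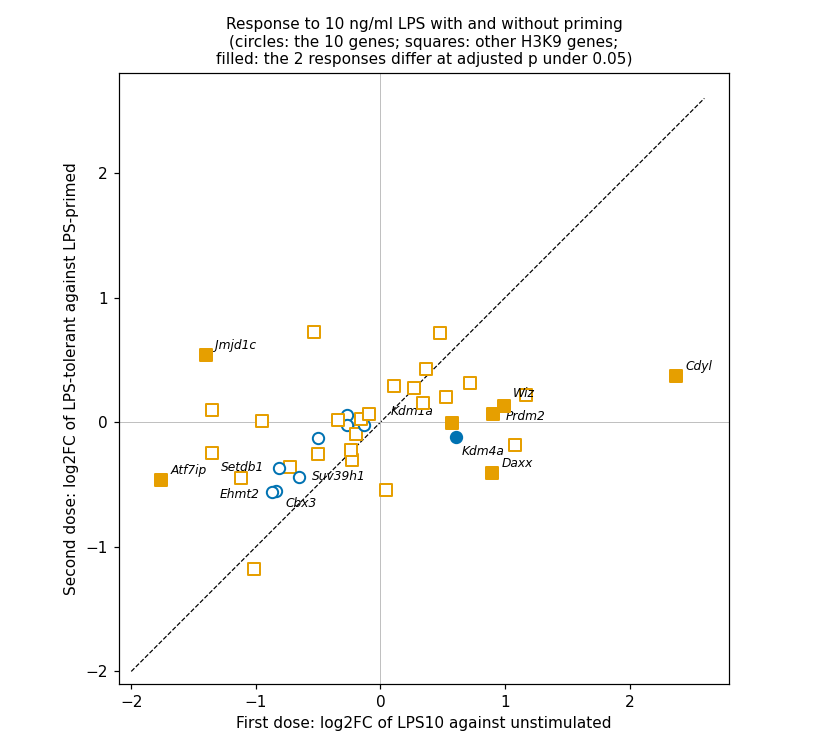
log2FC of the first dose (x axis, LPS10 against unstimulated) and of the second dose (y axis, LPS-tolerant against LPS-primed) for the 10 genes (circles) and 31 other genes of H3K9 methylation (squares); filled symbols mark a difference between the responses at an adjusted p under 0.05, and the dashed line marks equal responses. Kdm4a, Cdyl, Daxx, Wiz, Prdm2 and Kdm1a lie below the line on the right, and Jmjd1c and Atf7ip above it on the left.

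The other genes of the machinery gave the setting. Of 35 listed (further methyltransferases, demethylases, HUSH and SETDB1 cofactors, chromodomain proteins and HP1 partners), 31 were tested. Not every listed enzyme is established as acting on H3K9, Setmar and Riox1 among them. In LPS-primed against unstimulated BMDMs, 3 of these 31 were higher and 3 lower, where 12.1% and 13.1% of all tested genes were. The demethylase gene Kdm4b had a log2FC of 1.21 (SE 0.21, adjusted p = 0.000407), the chromodomain gene Cdyl2 one of 1.03 and the demethylase gene Kdm3a one of 0.55. The lower genes were Uhrf1 (-1.84), a reader of methylated H3K9 and hemimethylated DNA, Lbr (-1.37), a nuclear envelope protein that binds HP1, and Chaf1a (-1.18), the large subunit of the replication-coupled histone chaperone CAF-1. Kdm4b, a close relative of Kdm4a and Kdm4c, had 185 ± 20.7 normalized counts in unstimulated and 429 ± 28.5 in LPS-primed BMDMs (SD, n = 3).

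After the single dose, 7 of the 31 were higher and 7 lower, where 24.3% and 26.9% of all tested genes were. The largest increases were those of Cdyl (log2FC 2.37, SE 0.26, adjusted p = 1.15e-06), a chromodomain corepressor, the HUSH subunit gene Pphln1 (1.17) and Wiz (0.99), a zinc finger partner of the G9a/GLP complex. The largest decreases were those of Atf7ip (-1.76, SE 0.24, adjusted p = 1.42e-05), the stabilizing partner of SETDB1, Jmjd1c (-1.40), of the KDM3 family, and Setmar (-1.35). Atf7ip and Setdb1 were thus both lower after the single dose. In LPS-tolerant against LPS-stimulated BMDMs, 5 were higher (16.2% of all tested genes), led by Jmjd1c (1.43), Atf7ip (1.19) and Cdyl2 (1.09), and 7 lower (18.3%), led by Cdyl (-1.47), Daxx (-1.39), an H3.3 chaperone, and Chaf1a (-1.35). With the second dose, Riox1 (0.72) was higher and Chaf1a (-1.18) lower, where 3.60% and 2.71% of all tested genes were. The responses to the doses differed for 7 of the 31 (23.8% of all tested genes), and Kdm4a shared the sign of the difference with Cdyl, Daxx, Wiz, Prdm2 and Kdm1a, whereas Jmjd1c and Atf7ip had the opposite sign.

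Carboplatin was the drug under study, and none of the 10 genes was called for it. The counts were 0 of 10 in LPS-primed BMDMs (0.372% of all tested genes were called), 0 in LPS-tolerant BMDMs (0.425%), 0 for the mean of both effects (1.99%) and 0 for the difference between them (0.00%). By edgeR at an unadjusted p under 0.05, 1 gene, Cbx1, passed in LPS-primed BMDMs (6.86% of all tested genes) and in the mean (11.9%), and 0 passed in LPS-tolerant BMDMs (6.73%) and for the difference (1.16%). Cbx1 was also the 1 gene without overlap in LPS-primed BMDMs (12.9%), with 0 in LPS-tolerant BMDMs (11.4%). In these comparisons DESeq2 and limma-voom also called none at an adjusted p under 0.05. With an adjusted p under 0.25 and any log2FC, where 1.20%, 1.65% and 5.95% of all tested genes were called in LPS-primed, LPS-tolerant and mean comparisons, the 10 genes again gave 0. The median log2FC of the 10 genes was 0.04 in LPS-primed and -0.01 in LPS-tolerant BMDMs, and that of all tested genes was 0.01 in both.

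Cbx1 had 413, 377 and 413 normalized counts in LPS-primed BMDMs and 565, 512 and 494 with carboplatin. All treated samples were higher, and the log2FC was 0.38 (SE 0.13, 95% CI 0.11 to 0.66) with an adjusted p of 0.387. A block for the replicate number gave 0.125, which is under 0.25 but not under 0.05. In LPS-tolerant BMDMs the log2FC of Cbx1 was 0.01 (-0.26 to 0.28), and the difference between the effects, -0.38 (-0.76 to 0.01), did not pass the test (adjusted p = 0.9999).

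Cbx5 had 53.2, 70.0 and 56.6 normalized counts in LPS-tolerant BMDMs and 15.7, 74.0 and 54.2 with carboplatin. Sample 1 of the treated group, with 12 reads, lay far below the others, while the other two lay within or above the untreated range. The log2FC was -0.31 (SE 0.42), with a 95% interval from 0.435-fold to 1.49-fold. In LPS-primed BMDMs, Cbx5 had 31.8, 75.2 and 89.1 without and 52.7, 94.9 and 84.5 with carboplatin, and a log2FC of 0.25 (SE 0.41).

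Suv39h1 had 54.4, 65.6 and 29.9 normalized counts in LPS-tolerant BMDMs and 42.0, 41.0 and 29.4 with carboplatin. The treated sample was lower in 3 of 3 same-numbered pairs, but the groups overlapped, and the log2FC was -0.43 (SE 0.36), with an interval from 0.442-fold to 1.25-fold. In LPS-primed BMDMs it was -0.24 (SE 0.34). Suv39h2 had 7.87 to 14.8 normalized counts with and 9.27 to 11.4 without carboplatin in LPS-tolerant BMDMs, and its interval reached from 0.504-fold to 2.64-fold. These intervals do not tell a change of either direction from none.

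For the more abundant genes the intervals were narrower. In LPS-tolerant BMDMs, the interval of Setdb1 was 0.867-fold to 1.23-fold, that of Kdm4a 0.855-fold to 1.24-fold, that of Ehmt1 0.772-fold to 1.24-fold and that of Cbx3 0.737-fold to 1.22-fold. Ehmt2 had 1356, 1253 and 1170.5 normalized counts without and 1754, 1345 and 1428 with carboplatin. It was higher in 3 of 3 pairs with overlapping groups, at a log2FC of 0.26 (SE 0.13, adjusted p = 0.759). With the replicate block the adjusted p of Ehmt2 was 0.261. None of the 31 other tested genes of H3K9 methylation was called with carboplatin in either state or in the mean of both. At an adjusted p under 0.25, 3 of the 31 passed in the mean (5.95% of all tested genes) and 0 in either state (1.20% and 1.65%). Of these 3, Uhrf1 was lower and Prdm2 and Kdm3b were higher with carboplatin. Of the 15 proliferation genes, Ccnb1 and Plk1 were called in LPS-tolerant BMDMs with carboplatin (0.425% of all tested genes), both lower. In LPS-primed BMDMs 0 of the 15 were called (0.372%). In the mean of both, 5 were called (1.99%), all lower: Ccna2, Ccnb1, Cdk1, Plk1 and Top2a.

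**Figure D4:**
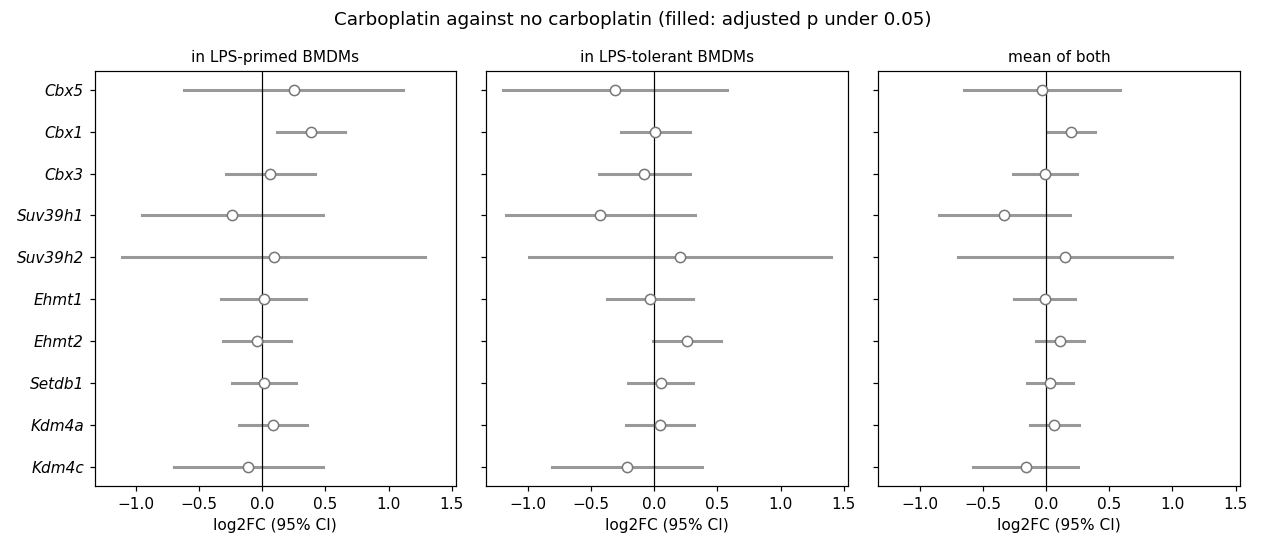
log2FC of carboplatin against no carboplatin (x axis) with 95% confidence intervals for the 10 genes (y axis) in LPS-primed and LPS-tolerant BMDMs and as the mean of both. No point is filled, since none had an adjusted p under 0.05, and the widest intervals are those of Suv39h2, Cbx5 and Suv39h1.

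None of the 10 genes passed a limit of 2 on the absolute log2FC in any comparison. Of all tested genes, 7.47% passed it in LPS-primed and 12.0% in LPS-stimulated against unstimulated BMDMs, 8.04% and 0.681% in LPS-tolerant against LPS-stimulated and LPS-primed BMDMs, and 8.01% for the difference between the doses. For carboplatin, with an adjusted p under 0.25, these were 0.265% in LPS-primed BMDMs, 0.389% in LPS-tolerant BMDMs, 0.557% for the mean and 0.00% for the difference.

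Setdb2, a further H3K9 methyltransferase, and the demethylase gene Kdm4d, a relative of Kdm4a, are not among the 10 genes and did not pass the filter on low counts. Setdb2 had 0 to 8 reads per sample and Kdm4d 0 to 5. In LPS-tolerant BMDMs, the 3 samples of Setdb2 summed to 1 read without and 0 with carboplatin, and those of Kdm4d to 3 and 6. In LPS-primed BMDMs the sums were 11 and 5 for Setdb2 and 0 and 6 for Kdm4d. Neither gene was tested, and reads this few do not tell a difference from none.

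The balance among the HP1 readers shifted with LPS. Taking the 3 genes per kilobase of exon as 100%, Cbx3 made up 38.5 to 39.4% in unstimulated, 28.0 to 33.5% in LPS-stimulated, 31.4 to 33.6% in LPS-primed and 21.1 to 26.2% in LPS-tolerant BMDMs. Every sample given LPS was below every unstimulated sample. Cbx1 made up 52.3 to 55.7% in unstimulated and 66.9 to 73.3% in LPS-tolerant BMDMs, again without overlap, and its own normalized counts overlapped between these groups. Cbx5 was the smallest part in every sample, at 1.63 to 8.29%. These shares are a description and were not tested.

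Over the 18 samples, the tested genes whose log2 CPM was most like that of Suv39h1 were Ercc6l (Pearson r = 0.96), Phf19 (0.94) and Ly86 (0.94). For Suv39h2 they were Lhx2 (0.91), Ilf2 (0.90) and Mcoln3 (0.88), for Cbx3 Sptbn1 (0.94), Dync2li1 (0.93) and Calcoco1 (0.92), and for Cbx5 Zfp763 (0.87), Zfp87 (0.86) and Oxsm (0.86). The points share libraries, depth and the group structure, and these values are descriptions.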

How the data were processed

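Total RNA of BMDMs was made into stranded mRNA libraries, and per the labels and the study's methods, the authors used HISAT2 for alignment to GRCm39 and HTSeq for counting reads on genes. The deposited values are these raw counts, 1 file for each of the 18 samples. Versions, annotation and strand option are not given in the sources used here. Rows that name no gene (41.5 to 46.9% of the reads of a sample) were left out. Same-group samples differed by more than counting noise, so none was counted as a repeat of another.

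Groups were taken from the sample labels. Counts were fitted with edgeR 4.0.16 (R 4.3.3) and tested by quasi-likelihood. The fit held all 18 samples with 6 group means, TMM factors and genes kept by filterByExpr (minimum count 10, minimum total 15). P values were adjusted by Benjamini and Hochberg over the 11305 tested genes, and a call needed an adjusted p under 0.05 and no minimum log2FC. The SE of a log2FC is its size over the root of the F statistic. Normalized counts are reads divided by the TMM-scaled library size, times the mean of these sizes. Levels per kilobase use the merged exons of GENCODE vM39. The fit was tested on simulated counts. With 3 samples a group, the spread behind the p values was estimated over all 6 groups and moderated across genes. The p values therefore do not measure the spread of the compared samples alone.

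The sample labels number the replicates. With group means taken out, samples that shared a number correlated at an r over 0.1 in every pair of all 6 comparisons of 2 groups (mean r 0.28 to 0.51), so the blocked value stands beside a result where it changes a call. For the difference between the doses the lowest r was 0.06, and its blocked values are given with the alternatives only.

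The 10 genes, the lists and the tests were chosen with earlier results of these data known. Named genes are the 10, Setdb2, Kdm4d and up to 3 called genes of the other H3K9 list with the greatest rise and the greatest fall. For Cbx5, Suv39h1 and the 2 further genes with the widest range, the 3 most alike genes are named. Prdm2, Kdm1a and Kdm3b were named after their values were seen. Alternatives were DESeq2 size factors or library size alone, no filter, DESeq2 1.42.0, limma-voom (limma 3.58.1), only the groups compared, the replicate block, the study's limits (|log2FC| > 2) and each sample left out in turn. Leaving out the samples numbered 1 together was added after seeing the data.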

Additional observations from a re-analysis of the deposited data

Results flagged for a closer look

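The difference between the response to the second and to the first 10 ng/ml dose of LPS was past the threshold (edgeR's quasi-likelihood test, Benjamini-Hochberg adjustment) for Kdm4a among the 10 genes. The value was -0.72 on the log2 scale (adjusted p = 0.00743), with the same sign in 3 of 3 same-numbered sets of samples. Same-numbered samples correlated as low as 0.06 here, so these sets may not be true pairs. Scaling by library size alone gave -0.48 with an adjusted p of 0.0629. Among the 31 other tested genes of H3K9 methylation, the difference was past the threshold for Cdyl (-1.999, adjusted p = 0.000517), Daxx (-1.31, adjusted p = 0.00786), Wiz (-0.86, adjusted p = 0.00374), Prdm2 (-0.84, adjusted p = 0.00575) and Kdm1a (-0.58, adjusted p = 0.0341), whose log2FC was lower at the second dose than at the first. It was also past the threshold for Jmjd1c (1.94, adjusted p = 0.000306) and Atf7ip (1.29, adjusted p = 0.00897), which fell at the first dose. Over all tested genes, 23.8% passed the same test. Groups of 3 were not tested for single outlying samples.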

How the results depend on the processing

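None of the called values of the 10 genes changed sign under any alternative. The number of the 10 genes called moved as follows. For LPS-primed against unstimulated BMDMs (4 called), library size alone gave 6 (Cbx1 and Kdm4a added), fitting only the groups compared gave 2 (Cbx3 and Suv39h1), leaving out 1 sample gave 2 to 4, and leaving out the samples numbered 1 together gave 2 (Cbx3 and Suv39h2). For LPS-stimulated against unstimulated BMDMs (4 called), library size alone gave 6 (Cbx1, Ehmt1 and Suv39h1 added, Kdm4a lost). For LPS-tolerant against LPS-primed BMDMs (1 called), library size alone, DESeq2 and the replicate block each gave 3, the groups compared alone gave 0, and leaving out 1 sample gave 0 to 1. For the difference between the doses (1 called), library size alone gave 3 (Cbx1, Ehmt2 and Setdb1, without Kdm4a), DESeq2 and the replicate block gave 2 (Kdm4a and Setdb1), and leaving out 1 sample gave 1 to 2. At the study's limit on log2FC, 0 of the 10 genes were called in any comparison. Without the filter, Ehmt2 was not called in LPS-primed BMDMs (adjusted p = 0.0827). The replicate block also added Suv39h1 in LPS-stimulated BMDMs and changed no other call of the 10 genes. Where not stated, the cause was not tested.

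Library size alone moved the median log2FC of all genes from -0.02 to -0.26 in LPS-primed, from -0.09 to -0.43 in LPS-stimulated and from -0.01 to -0.11 in LPS-tolerant against LPS-primed BMDMs, and from 0.06 to 0.30 for the difference between the doses. The share of called genes that were higher moved from 48.1% to 26.4%, from 47.5% to 28.5%, from 57.1% to 38.3% and from 44.2% to 63.3%. Suv39h2 had as few as 4 reads in a sample, and Setdb2 and Kdm4d too few for a test. The part of depth in the wide intervals of Suv39h2, Cbx5 and Suv39h1 was not tested.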
